A study of Mus musculus with 9 samples.

Results

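The genes described here encode the proteins of the cytoplasmic ribosome. They were taken from the count table by name, as protein-coding genes whose symbol starts with Rpl or Rps followed by a digit, together with Rpsa, Rplp0, Rplp1 and Rplp2. Rps6k kinases and pseudogenes were left out. This gave 86 genes of the 35275 in the table, 52 named for the large and 34 for the small subunit. Of these, 77 are standard ribosomal proteins, 8 are paralogs such as Rpl22l1 and Rps27l, and Rps19bp1 is a binding partner of Rps19 that the name rule brought in. Fau and Rack1 encode ribosomal proteins under other names and were followed separately.

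The small subunit reads the mRNA and the large subunit joins the amino acids. Most of their proteins are needed in equal numbers, and their mRNAs are short and abundant. Many of these mRNAs start with a 5′ TOP, a C followed by a run of C and T, through which mTOR signalling controls their translation together. Red cell precursors depend on them: loss of a copy of genes such as RPS19 causes Diamond-Blackfan anemia in humans, and RPS14 is lost in the 5q- syndrome.

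Bulk RNA-seq was carried out on mouse bone marrow MEPs, progenitors of megakaryocytes and erythroid cells, gated as Lin-ckit+CD34-FcγRII/IIIlo. MEPs were sorted by how strongly they bound HS3A8, an scFv antibody against heparan sulfate, into HS3A8-high and HS3A8-low cells. MPB49, an scFv that does not bind heparan sulfate, gave the mock-sorted control, which stands for total MEPs. Each group had 3 libraries of 25000 cells, and none was treated. The labels name no genotype, strain or age, and the methods describe wild-type C57Bl/6 mice matched for age and sex. A sorted fraction is a mixture of cells, so that fewer cells of a type and less RNA per cell cannot be told apart. The labels do not name the animals, and the study describes 3 individual mice for the sorted groups.

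Library totals ran from 11781637 to 15850037 counts, and 13936 to 15659 genes had a count in a library. Levels are given as CPM, library-scaled counts after TMM normalization over the 9 libraries. Erythroid markers were high in every library, with 11246 to 15692 summed CPM over 12 genes. Megakaryocyte markers summed to 38.6 to 58.7 CPM over 10 genes in HS3A8-high, 233 to 466 for HS3A8-low and 165 to 270 in the control. Control replicate 1 stood apart from its group: its chi-square per degree of freedom was 196 and 150 against the other 2 control libraries, which gave 9.61 against each other.

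Ribosomal protein genes took 3.93, 5.13 and 4.49% of all counts in HS3A8-high replicates 1, 2 and 3. The share was 4.02, 5.001 and 6.18% for HS3A8-low, and 10.9, 4.32 and 4.96% in the control. The sorted groups overlapped, and the control held both the highest library of the 9 and 2 libraries inside the range of the sorted groups. As mean ± SD (n = 3), the share was 4.52% ± 0.599 for HS3A8-high, 5.06% ± 1.08 for HS3A8-low and 6.74% ± 3.65 in the control. The exact (Clopper-Pearson) 95% interval was 3.92 to 3.94% for the lowest share and 10.91 to 10.95% for the highest, and covers counting error only. In each group the library with the fewest counts had the largest share and the library with the most counts the smallest.

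Large subunit genes held 2.35 to 5.96% of all counts and small subunit genes 1.58 to 4.96%. The ratio of large to small subunit counts was 1.49, 1.44 and 1.49 for HS3A8-high, 1.48, 1.43 and 1.33 for HS3A8-low, and 1.20, 1.51 and 1.43 in the control. The 2 libraries with the largest share of ribosomal protein counts, control replicate 1 and HS3A8-low replicate 3, had the lowest ratios. The small subunit thus held a larger part of these counts there. Counts per kb of transcript gave 1.48, 1.42 and 1.46 for HS3A8-high, 1.47, 1.40 and 1.28 for HS3A8-low, and 1.17, 1.49 and 1.39 in the control, with the same 2 libraries lowest.

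**Figure D1:**
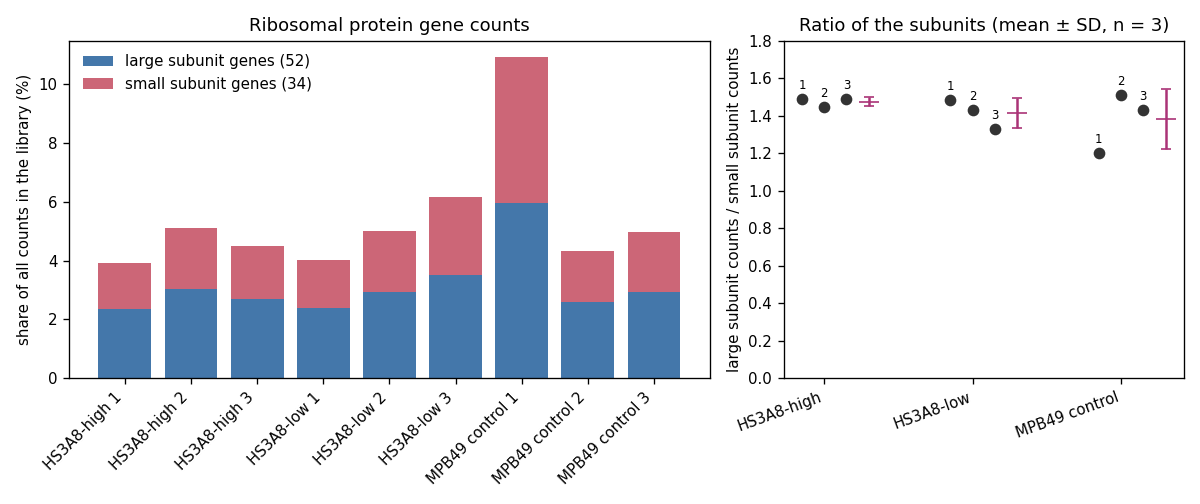
Left, share of each library's counts (%) in the 52 large and 34 small subunit genes, stacked, for the 9 libraries. Right, ratio of large to small subunit counts by group, with each library as a point labelled by its replicate number and the mean ± SD (n = 3). Control replicate 1 has 10.9% of its counts in these genes and the lowest ratio, 1.20.

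Levels differed widely between the genes. Per kb of transcript, averaged over the 9 libraries, the large subunit genes with high levels included Rplp0 at 2835 CPM per kb, Rpl41 at 2062, Rpl13 at 1974 and Rpl3 at 1936. Rplp0 anchors the stalk, which recruits elongation factors, Rpl41 is the smallest ribosomal protein, and Rpl3 lies near the peptidyl transferase center. Those of the small subunit included Rps18 at 2354 CPM per kb, Rps19 at 1863, Rps14 at 1617 and Rps3, a protein of the mRNA entry channel, at 1338. The median level over the standard proteins was 815 CPM per kb in the large subunit (46 genes) and 983 in the small (31 genes). These levels rest on the annotated transcript length. With the length of all annotated exons joined, Rps18 came to 522 CPM per kb and Rplp0 to 1459.

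At the bottom of the scale lay 4 genes with a mean under 5 CPM. Rpl10l, a testis paralog of Rpl10, had 0 counts in all 9 libraries, which allows up to 0.189 to 0.255 CPM. Rpl3l, a muscle paralog of Rpl3, had 0 to 5 counts and Rpl39l had 0 to 10. Rpl24 had 3 to 24 counts, and 47.0% of its exon bases lie in Gm28037, an overlapping gene model. Overlap also touched Rpl23a (62.3%, Snord42b and Tlcd1) and Rpl35 (66.2%, Arpc5l and Wdr38), so that their levels are uncertain. The other 82 genes, 48 large and 34 small, had a mean of at least 5 CPM and are described from here on.

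Almost all the variation of these 82 genes between libraries ran along a shared direction. The first principal component of their log2 levels held 98.0% of their variance over the 9 libraries, and 93.9% without control replicate 1. For 9019 other protein-coding genes at the same minimum level it held 43.1% and 54.9%. Scores on this component were 1.42 for control replicate 1 and 0.38 for HS3A8-low replicate 3. The other 7 libraries scored from −0.53 up to just under 0. The component did not order the libraries by sort group, since HS3A8-low replicate 1 (−0.53) and HS3A8-high replicate 1 (−0.51) were the 2 lowest and the control held the highest.

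**Figure D2:**
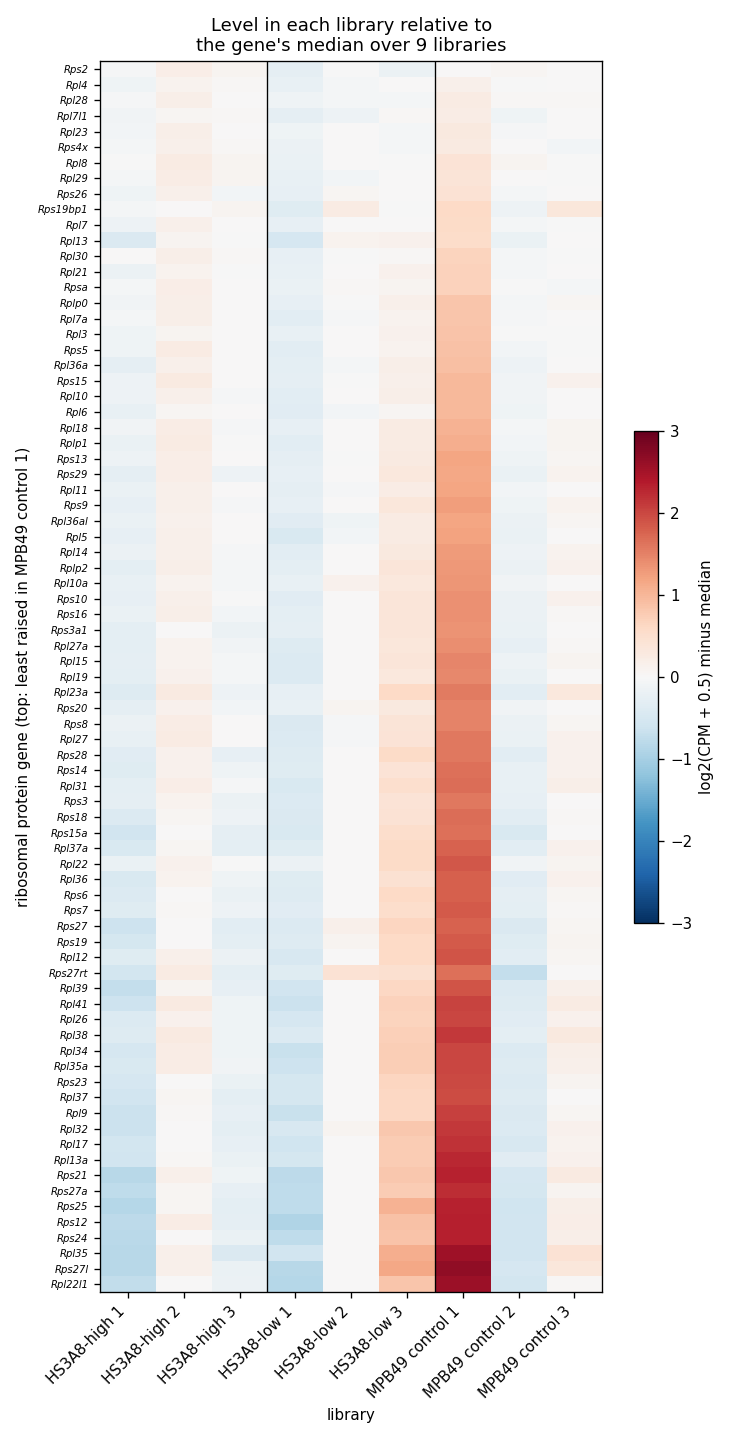
Level of 79 of the 82 ribosomal protein genes in the 9 libraries, as log2(CPM + 0.5) minus the gene's median over all libraries (red higher, blue lower), ordered by the excess in control replicate 1. The column of control replicate 1 deepens from Rps2 at the top to Rpl22l1 at the bottom, and HS3A8-low replicate 3 follows the same order more faintly.

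Control replicate 1 was the highest library for 80 of the 82 genes, and Rps2 was not among them. On the scale of log2(CPM + 0.5), it lay above the mean of the other 2 control libraries by a median of 1.54, with 60 of 82 genes (73.2%) at 1 or more. Among the 9019 other protein-coding genes the median was −0.16, and 8.89% were at 1 or more. The excess reached small subunit genes (median 1.69, 34 genes) more than large subunit genes (median 1.35, 48 genes). It held with library totals in place of TMM (median 1.38) and with DESeq2 size factors (1.597).

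Rpl22l1, the paralog of Rpl22, had the largest excess, 2.82. Its level was 51.1, 87.1 and 76.1 CPM for HS3A8-high, 47.2, 86.1 and 154 for HS3A8-low, and 509, 58.2 and 88.1 in the control. Rps27l, the p53-responsive paralog of Rps27, measured 156, 309 and 239 CPM for HS3A8-high, 156, 277 and 620.5 for HS3A8-low, and 1745, 194 and 349 in the control. In both genes control replicate 1 was the highest library and HS3A8-low replicate 3 was next, while the remaining 7 libraries of the 3 groups overlapped. Rps24, which is mutated in Diamond-Blackfan anemia and had an excess of 2.53, measured 209, 366 and 317 CPM for HS3A8-high, 215, 368 and 668 for HS3A8-low, and 1845, 248 and 411 in the control.

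At the other end lay genes that varied little. Rps2, of the mRNA entry channel, measured 1371, 1413 and 1364 CPM in the control, with replicate 1 in the middle. Its highest and lowest of the 8 libraries other than control replicate 1 differed 1.40-fold, against a median of 1.69-fold over the 82 genes and 3.98-fold for Rps27l. Rpl4 measured 2064, 1856 and 1887 CPM there, and Rpl28 370, 319 and 319. Rps2 was thus no higher in control replicate 1 than in its group with TMM, although with DESeq2 size factors all 82 genes were above it. By contrast Rplp0, often used as a reference gene, measured 3945 CPM there against 2157 and 2310.

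The bases around annotated starts are shown because the 5′ TOP is the feature these mRNAs are known to share. The genes shown are the most and the least raised of those with exactly 1 RefSeq start window. Genes with more than 1 window (10) or without a window (20) were not considered, so that Rps27l and Rps24 are not shown. Each window runs 5′ to 3′ from 10 bases before the RefSeq start through the first 20 bases from that start (GRCm38.p6). Capitals mark a C followed by at least 4 bases that are C or T, starting within 10 bases of the start on either side, on the sense strand. The starts used for Rps2, Rps25 and Rpl35 lie further inside the annotated gene than the others. Where transcription starts in these cells was not measured. Highest excess first, the 4 most raised were Rpl22l1 (chr3:28805498-28805527, plus strand), Rpl35 (chr2:39005112-39005141, minus), Rps12 (chr10:23787190-23787219, minus) and Rps25 (chr9:44407704-44407733, plus).
Rpl22l1: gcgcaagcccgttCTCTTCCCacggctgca
Rpl35: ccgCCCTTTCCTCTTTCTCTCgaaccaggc
Rps12: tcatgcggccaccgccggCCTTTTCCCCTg
Rps25: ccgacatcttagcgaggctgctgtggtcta
The 4 least raised, lowest first, were Rps2 (chr17:24720053-24720082, plus), Rpl4 (chr9:64173377-64173406, plus), Rpl28 (chr7:4792955-4792984, plus) and Rpl7l1 (chr17:46782637-46782666, minus).
Rps2: gtcgagatctcgcgCTTCTTggagcactat
Rpl4: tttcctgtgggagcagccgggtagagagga
Rpl28: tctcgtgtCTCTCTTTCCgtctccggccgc
Rpl7l1: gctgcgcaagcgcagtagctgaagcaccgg

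The form was present in 3 of the 4 most raised windows and in 2 of the 4 least raised. Over all ribosomal protein genes, 66 had a RefSeq window and 40 of them (60.6%) held the form, with 60.0% in the large and 61.5% in the small subunit. Among 27025 genes with a window it was found in 34.4%. The median excess in control replicate 1 was 1.87 over 37 genes with the form and 1.25 over 25 without it. Where the form is missing, as in Rps25, only these letters are absent from this window.

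HS3A8-low replicate 3 repeated the order of the genes on a smaller scale. Its level lay above the mean of the other 2 HS3A8-low libraries for 80 of 82 genes, with a median log2 difference of 0.53 and the largest, 1.58, for Rps27l. Across the 82 genes, this difference and that of control replicate 1 against its own group correlated with r = 0.951 and rho = 0.969. Across 9019 other protein-coding genes r was 0.434 and rho 0.538, and across the 1698 of them under 1 kb r was 0.440 and rho 0.669. HS3A8-high replicate 1 ran the other way: all 82 genes were below the mean of its group's others, by a median of 0.31 on the log2 scale, and r with control replicate 1 was −0.835. These are correlations across genes that share the same libraries and the same range of lengths, and genes are not independent replicates.

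**Figure D3:**
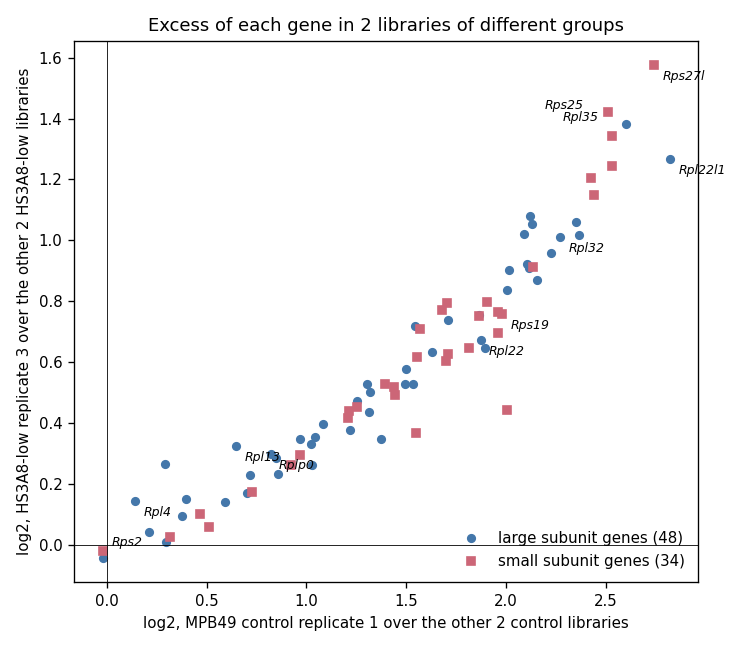
For each of the 82 genes, log2 of control replicate 1 over the other 2 control libraries (x axis) and of HS3A8-low replicate 3 over the other 2 HS3A8-low libraries (y axis), with large subunit genes as circles and small subunit genes as squares. The genes lie along a rising curve (r = 0.951) from Rps2 near 0 to Rps27l and Rpl22l1.

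Transcript length differed between these genes and the rest. Their median transcript was 713 bases and 67 of the 82 were under 1 kb, against a median of 2132 bases for other protein-coding genes. Among the others, control replicate 1 differed from its group by a median of 0.28 at 0.5 to 1 kb (1568 genes) and of −0.63 over 4 kb (1477 genes). Classed by median transcript length, ribosomal protein genes had higher medians than the other genes of their class. These were 1.89 under 0.5 kb (15 genes), 1.54 at 0.5 to 1 kb (52 genes) and 1.03 at 1 to 2 kb (13 genes). In the last class the other 2490 genes had a median of 0.12. Of the 1698 other genes under 1 kb, 23.7% were at 1 or more, against 73.2% of the ribosomal protein genes. Oxidative phosphorylation genes, with a median transcript of 707 bases, had a median excess of 1.18, and 52 of 90 were at 1 or more. Within the 82 genes the excess correlated only weakly with log2 length (r = −0.316) and with GC content (r = −0.315). With the log2 length of all annotated exons joined, r was −0.078. For the 1698 other genes under 1 kb, r was −0.032 with log2 length and −0.513 with that of the joined exons. The length classes used here therefore do not hold the joined-exon length alike. Rps20 had the longest annotated median transcript of the 82 genes, 3706 bases, and an excess of 1.55. These lengths are medians over annotated transcripts, and which transcripts these cells held was not measured.

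**Figure D4:**
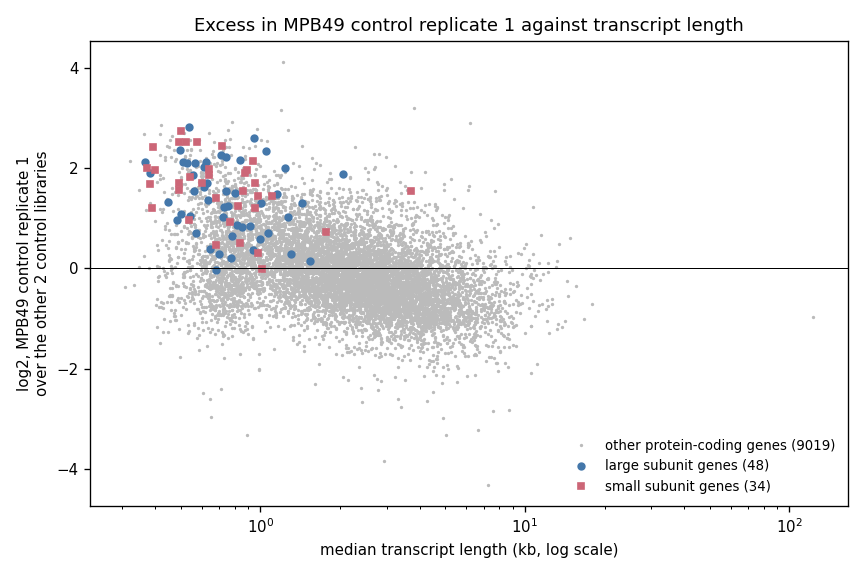
Log2 of control replicate 1 over the other 2 control libraries against median transcript length (kb, log axis) for 48 large subunit genes (circles), 34 small subunit genes (squares) and 9019 other protein-coding genes (grey), all with a mean of at least 5 CPM. Most ribosomal protein genes sit in the upper left, above most other genes of like median transcript length.

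Other values also differed between libraries, and not all of them followed the ribosomal protein share. Mitochondrially encoded genes held 0.547% of counts in control replicate 1 and 0.147 to 0.327% elsewhere. Genes over 4 kb held 6.94%, against 9.50 to 13.1% in the other 8 libraries. Rows named as pseudogenes of ribosomal protein genes held 0.0677%, against 0.0234 to 0.0356%. Granulocyte and monocyte markers (8 genes, none at 0 in any group) summed to 3428 CPM in HS3A8-low replicate 3, 88.6 and 211 in that group's others, and 1491 in HS3A8-high replicate 3 against 14.9 and 6.79. In the control they summed to 40.7 CPM in replicate 1, 174 in replicate 2 and 127 in replicate 3. Basophil and mast cell markers (5 genes) summed to 24.4 CPM in control replicate 1 and 8.39 and 8.46 in its group's others, and to 136 in HS3A8-low replicate 3 and 21.7 and 23.5 in its group's others. T and NK cell markers (6 genes) summed to 107 CPM in control replicate 1 and 61.8 and 51.3 in its group's others, but to 176 in HS3A8-low replicate 3, below the 218 and 192 of its group's others. B cell markers summed to at most 3.70 CPM in any library, and Pax5 was at 0 in all. The part of any of these in the ribosomal protein levels was not tested.

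HS3A8-high and HS3A8-low MEPs are the comparison at the center of the sort, which asks how cells of high and low binding differ. Of the 82 ribosomal protein genes tested, 0 passed an adjusted p of 0.05 (edgeR quasi-likelihood test, Benjamini-Hochberg), while 3.82% of all 11791 genes tested did. None had an unadjusted p under 0.05 (0 of 82), against 19.8% of all genes. DESeq2 called 0 of them and 8.98% of all genes, and voom with quality weights 0 and 12.6%. The log2 fold change, HS3A8-high over HS3A8-low, had a median of −0.14 (all genes −0.03), with 19 genes above 0 and 63 below. The median was −0.09 in the large and −0.19 in the small subunit. The range ran from −0.69 for Rpl35 to 0.20 for Rps2. Groups did not overlap for 1 of 82 genes (1.22%), Rpl28, against 29.5% of all genes.

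Rps2 had the largest positive value. Its level was 1330, 1573 and 1452 CPM for HS3A8-high and 1123, 1355 and 1217 for HS3A8-low, so that HS3A8-high was higher in each of the 3 numbered pairs although the groups overlapped. Its log2 fold change was 0.20 ± 0.089 (SE), with an edgeR adjusted p of 0.278. The replicate numbers were taken to pair the libraries of these groups, which was inferred from all genes and is not stated by the labels. Over 83 ribosomal protein genes, however, same-numbered libraries correlated with r = 0.805, −0.383 and 0.22, and HS3A8-high replicate 2 with HS3A8-low replicate 3 with r = 0.822. With the number as a block the value was 0.20 ± 0.048 with an adjusted p of 0.0491, past the threshold that 11.6% of all genes passed in that fit. Over all alternatives the adjusted p ran from 0.0337 to 0.563. Rps2 was the only ribosomal protein gene called with the block. When length and GC trends were added to it, Rps27 was called as well, so that 2 of 82 passed against 14.5% of all genes, at −0.46 ± 0.10 with an adjusted p of 0.0361 (its alternatives ran from 0.0361 to 0.771). Rps27 measured 183, 282 and 225 CPM for HS3A8-high and 212, 316 and 440 for HS3A8-low.

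The other genes with the largest positive values were Rpl29, Rpl8, Rpl30 and Rpl28, from 0.10 to 0.15. Rpl28 measured 305, 352 and 313 CPM for HS3A8-high and 284, 299 and 300 for HS3A8-low, a difference of 0.10 ± 0.081 on the log2 scale with an adjusted p of 0.573. The largest negative values belonged to Rpl35, Rps25, Rps27l, Rpl32 and Rps24, from −0.69 to −0.53, with adjusted p from 0.401 to 0.550. All 5 were high in HS3A8-low replicate 3: Rps25 measured 301, 515 and 1055 CPM for HS3A8-low and 286, 540 and 419 for HS3A8-high.

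Pair by pair, the difference turned. Genes were higher in HS3A8-high for 55 of 82 in pair 1 (median log2 0.08) and 73 of 82 in pair 2 (0.15), and for 9 of 82 in pair 3 (−0.44). Without HS3A8-low replicate 3 the edgeR median was 0.09, with 64 genes above 0 and 19 below and 0 called. The value for Rps24 then was 0.0011 and for Rps25 −0.0038.

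Markers of cell type differed between the sorted groups. Of 9 megakaryocyte markers tested, 5 were lower in HS3A8-high than in HS3A8-low and 0 higher (edgeR), among them Pf4 at −4.29 ± 0.38 and Itga2b at −4.01 ± 0.34, each with an adjusted p of 0.0071 that reached 0.0685 in its highest alternative. Of all genes 3.21% were lower, and 8.27% with the replicate block, while 0.611% were higher, and 3.32% with the block. Of 12 erythroid markers 1 was higher, Car1, a carbonic anhydrase, at 0.36 ± 0.054 with an adjusted p of 0.0257 (0.115 in its highest alternative). Of 8 stem and multipotent progenitor markers 3 were lower, and of 6 T and NK cell markers 3. The count was 0 of 8 granulocyte and monocyte, 0 of 3 basophil and mast cell and 0 of 1 B cell markers, and 0 of 13 p53 targets. With the replicate block 8 megakaryocyte, 5 stem and multipotent progenitor, 4 T and NK cell, 5 granulocyte and monocyte and 1 basophil and mast cell marker were lower, 4 erythroid markers were higher, and of the p53 targets 1 was higher and 1 lower. Their part in the ribosomal protein values was not tested.

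The comparison with the control places each fraction against total MEPs. The paper describes the fractions as the upper and the lower part of the MEP gate by HS3A8 binding, equal in size. Both comparisons use the same control libraries. For HS3A8-high, 0 of 83 ribosomal protein genes tested passed (edgeR), while 2 of 11486 genes (0.0174%) did. No ribosomal protein gene had an unadjusted p under 0.05 (0 of 83), against 4.89% of all genes. DESeq2 called 0 of them and 1.07% of all genes, and voom 0 and 0.871%. The median log2 fold change was −0.72, with 82 of 83 below 0 and only Rps2 above it, at 0.06 ± 0.13. The median was −0.62 in the large and −0.82 in the small subunit. Groups did not overlap for 0 genes, against 14.4% of all. The lowest values were those of Rps27l (−1.72 ± 0.79), Rpl35 (−1.71 ± 0.76), Rpl22l1 (−1.63 ± 0.79), Rps24 (−1.51 ± 0.72) and Rps25 (−1.49 ± 0.72), each with an adjusted p of 0.733. Without control replicate 1 the median was −0.01, with 35 genes above 0 and 48 below, and Rps27l was at −0.21. Under voom, which gives an outlying library less weight, the median was −0.05.

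For HS3A8-low against the control, 0 of 82 genes passed (edgeR), as did 0 of all 11878 genes tested (0%). None of the 82 reached an unadjusted p of 0.05 (0 genes), against 5.67% of all genes. DESeq2 called 0 of them and 0.71% of all genes, and voom 0 and 2.42%. The median log2 fold change was −0.62, and all 82 values were below 0, or 81 with library totals in place of TMM. That scaling moved the median of all genes from −0.0028 to 0.11. The median was −0.58 in the large and −0.65 in the small subunit. Rpl28 and Rps2 were lower in every HS3A8-low library than in any control library, 2 of 82 genes (2.44%) against 12.7% of all. Rpl22l1 was lowest at −1.23 ± 0.85. Without control replicate 1 the median turned to 0.09, with 64 genes above 0 and 18 below, and Rpl22l1 to 0.39.

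**Figure D5:**
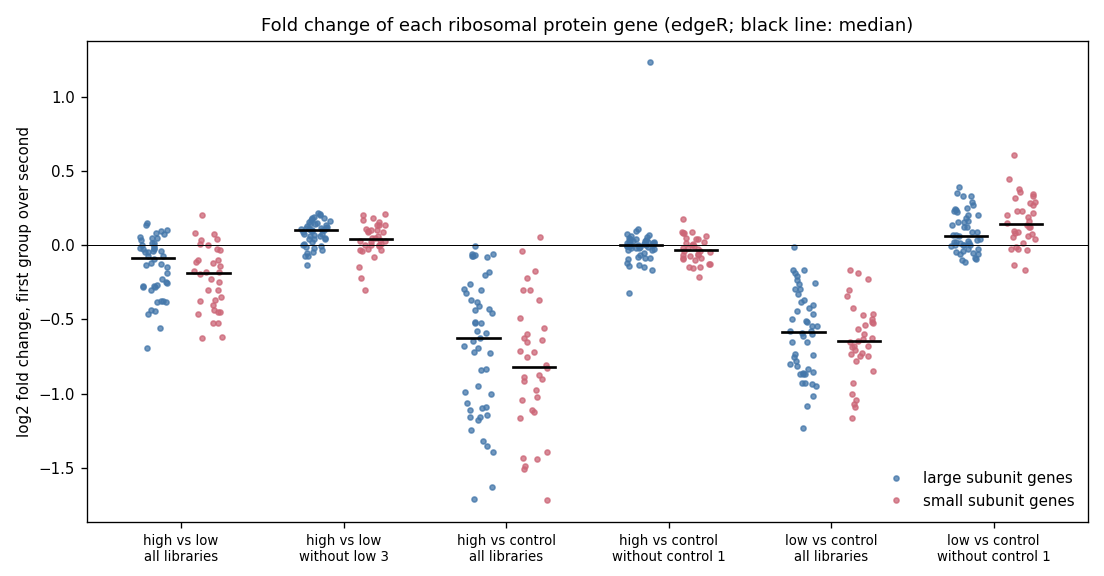
Log2 fold change (first group over second, edgeR) of each tested ribosomal protein gene in the 3 comparisons, with all libraries and without the library that stood apart, for large and small subunit genes, with a black line at the median. The control comparisons lie below 0 with all libraries (medians of −0.72 and −0.62) and near 0 without control replicate 1 (−0.01 and 0.09). The lone point at 1.23 is Rpl24, which had 3 to 24 counts a library.

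Genes mutated in Diamond-Blackfan anemia, an inherited failure of red cell production, were examined as a list. Of 22 ribosomal protein genes on that list, 0 were called in HS3A8-high against HS3A8-low, against 3.82% of all genes tested. So short a list can hold 0 calls at that share. Their median log2 fold change was −0.18, with 3 above 0 and 19 below. Rps19 measured 656, 949 and 778 CPM for HS3A8-high, 721, 1008 and 1441 for HS3A8-low, and 3389, 732 and 1004 in the control. Rps14 measured 614, 874 and 722 CPM for HS3A8-high, 615, 793 and 1061 for HS3A8-low, and 2500, 683 and 865 in the control. Both were highest in control replicate 1 and overlapped between the sorted groups. The excess in control replicate 1 was 1.31 for Rpl5 and 1.22 for Rpl11, which bind Mdm2 with 5S rRNA, and 2.13 for Rpl35a. Over the 22 genes it had a median of 1.69, with 20 at 1 or more.

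Paralogs did not keep a fixed ratio to their partners. Per kb, Rpl22l1 made up 59.5 to 73.8% of Rpl22 and Rpl22l1 together in 8 libraries and 79.2% in control replicate 1. Rps27l made up 37.0 to 52.99% of its pair with Rps27 in 8 libraries and 59.0% in control replicate 1, with the highest of the 8 in HS3A8-low replicate 3. In both pairs the paralog was the more raised of the 2 genes. Rpl36al held 43.3 to 45.8% of its pair with Rpl36a, and 49.7% in control replicate 1. Rpl7l1, a nucleolar relative of Rpl7 that was little raised, held 20.6 to 22.9%, and 18.6% there. In the counting, reads of near-identical copies could be assigned to the other gene of a pair or to a pseudogene, or be left out. These shares are therefore uncertain.

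Genes that build and use ribosomes gave other values than the ribosomal protein genes. Of 54 ribosome biogenesis genes tested, which transcribe and process rRNA and assemble the subunits, 5 were higher in HS3A8-high than in HS3A8-low and 0 lower (edgeR), and 20 were higher with the replicate block. Of all genes tested, 0.611% were called higher, and 3.32% with the block. Their median log2 fold change was 0.26, with 49 above 0. The 5 were Ncl, Utp4, Bysl, Bop1 and Wdr75, at 0.36 to 0.40. Ncl, the nucleolar protein nucleolin, averaged 2027 ± 58.1 CPM for HS3A8-high and 1520 ± 120 for HS3A8-low (SD, n = 3), with an adjusted p of 0.0354 that ran from 0.0014 to 0.397 across alternatives. Without HS3A8-low replicate 3 there was 1 call, and without any other library of the pair there were 0. With library totals, and with all 9 libraries in 1 fit, the count was also 0, and DESeq2 gave 16. In control replicate 1 the median of these genes against their group was −0.28, and 4 of 54 were at 1 or more.

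Of 24 translation initiation factors, 0 were called in HS3A8-high against HS3A8-low, 7 with the block, all higher, and their median was 0.19. Of 16 further mRNAs known for a 5′ TOP, 1 was called (3 with the block), Hnrnpa1, at 0.36 ± 0.061 with an adjusted p of 0.0319 (its alternatives ran from 0.000553 to 0.182). Their excess in control replicate 1 had a median of 0.26, and that of the initiation factors 0.01. Mitochondrial ribosomal protein genes (76 tested) had 0 calls, 2 with the block and a median of 0.10, and an excess in control replicate 1 of 0.90. Oxidative phosphorylation genes (93 tested), whose transcripts are also short, had 0 calls, 4 with the block and a median of −0.02, and an excess of 1.18, with 52 of 90 at 1 or more. Rack1 and Fau had 0 calls, as did the 3 stalk genes Rplp0, Rplp1 and Rplp2 and the 5 paralogs tested. Over all genes tested, the share called in HS3A8-high against HS3A8-low was 3.82%. With the block it was 11.6%, and 3.32% were called higher.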

How the data were processed

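MEPs were profiled by bulk RNA-seq in 9 libraries, 3 each of HS3A8-high, HS3A8-low and MPB49 control cells. The file deposited by the authors holds unnormalized read counts, a column per library. The submitters' processing notes name STAR 2.5, HTSeq 0.6.1 and mm10. The annotation release and the strand setting are not given in the sources used here. The paper's methods name DESeq2 without a formula.

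Gene IDs were matched to GENCODE M21 on GRCm38 (34490 matched, 785 not), and transcript length is the median over a gene's protein-coding transcripts. Each comparison was fitted on its 2 groups with the quasi-likelihood test of edgeR 4.0.16 in R 4.3.3 (TMM, filterByExpr, Benjamini-Hochberg over all genes, threshold 0.05). The SE printed with an edgeR value is the absolute log2 fold change divided by the square root of the quasi-likelihood F. Start windows come from RefSeq. Library totals of 11781637 to 15850037 counts put the limit that a count of 0 allows (3 counts) at 0.189 to 0.255 CPM.

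Alternatives were other scalings, DESeq2 1.42.0, voom with quality weights (limma 3.58.1), other count filters, all 9 libraries in 1 fit, length and GC trends (splines of 5 degrees of freedom), the replicate number as a block, and each library left out. Length trends from other genes and length with GC trends without the block were chosen after seeing the data. Same-numbered HS3A8-high and HS3A8-low libraries deviated together (r = 0.489, 0.325 and 0.508 over 12130 genes; other pairs −0.467 to 0.123), and the numbers were taken to pair them. Over the ribosomal protein genes alone these pairs gave r = 0.805, −0.383 and 0.22. The pairing comes from the data, since the labels give only the number. Deviations were taken from group means, so that a positive r in some pairs pulls down the r of the others.

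The members and lists were chosen with earlier results of these data known. Genes named were the 5 of each subunit with the highest level per kb, the 5 highest and 5 lowest log2 fold changes of each comparison, calls, paralog pairs, genes under the count filter, and Rps19, Rps24, Rps14, Rpl5, Rpl11 and Rpl35a. Rps20, Rpl23a and the example members of other lists were chosen after their values were seen. Some genes that this rule names are not reported here. Marker lists were erythroid, megakaryocyte, stem and multipotent progenitor, granulocyte and monocyte, basophil and mast cell, B cell, and T and NK cell.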

Additional observations from a re-analysis of the deposited data

How the results depend on the processing

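No ribosomal protein gene was called in either control comparison under any of 19 alternatives each, nor in 17 of 19 for HS3A8-high against HS3A8-low. The other 2 were the replicate block (1 call, Rps2, against 11.6% of all genes) and the replicate block with length and GC trends (2 calls, Rps2 and Rps27, against 14.5% of all genes). With each library left out in turn, the median log2 fold change ran from −0.28 to 0.09 for HS3A8-high against HS3A8-low, from −0.9996 to −0.0063 for HS3A8-high against the control and from −0.93 to 0.09 for HS3A8-low against the control, the last value of each being that without HS3A8-low replicate 3 or control replicate 1. In all other alternatives the medians kept their sign, from −0.18 to −0.07, −0.75 to −0.05 and −0.64 to −0.02. The control numbers did not pair with those of the sorted groups (same-number r from −0.345 to 0.033), and the replicate block gave medians of −0.49 and −0.40 there with 0 calls.

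Some uncalled values changed sign, and not all of them were near 0. Values for HS3A8-high against the control are given in the order of voom, length trends, the replicate block with length and GC trends, length trends from other genes, and length and GC trends alone. Rps4x went to 0.10, 0.077, 0.068, 0.075 and 0.067, Rpl7l1 to 0.040, 0.033, 0.0025, 0.033 and 0.0021, and Rpl29 to 0.11, 0.12, 0.11, 0.11 and 0.11. In HS3A8-low against the control, Rpl23 went to 0.0100, 0.00066, 0.0022 and 0.0029 in the last 4 of these, and voom gave 0.015 for Rps4x and 0.086 for Rpl22l1. The edgeR value of Rpl22l1 there was −1.23, the lowest of the ribosomal protein genes tested. The cause was not tested.

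With a library left out, values in HS3A8-high against the control ran from −0.15 to 0.095 for Rpl29, −0.14 to 0.059 for Rpl7l1, −0.11 to 0.085 for Rps4x and −0.018 to 0.13 for Rps2. In HS3A8-low against the control they ran from −1.74 to 0.39 for Rpl22l1, −1.68 to 0.33 for Rpl35, −1.61 to 0.32 for Rps12, −1.57 to 0.22 for Rps21 and −1.85 to 0.38 for Rps27l. In HS3A8-high against HS3A8-low, Rps24 ran from −0.82 to 0.0011 and Rps27l from −0.95 to 0.089. Per kb of joined exons, the ratio of large to small subunit counts moved to 1.34 in control replicate 1, 1.49 and 1.52 in HS3A8-high replicates 2 and 3, and 1.41 in HS3A8-low replicate 3.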
